A study of Mus musculus with 12 samples.

Results

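Translation efficiency (TE) was compared between 2 times of cisplatin (Cis) exposure in KPC cells, a mouse pancreatic ductal adenocarcinoma line. The members were the genes with a mean RPKM (reads scaled to the length of the feature and to the reads of the library) of at least 1 in ribosome footprints and in RNA-seq over the Cis libraries, which kept 9187 of the 15803 transcripts listed in the series, each the representative transcript of a gene. TE is the footprint RPKM of a coding sequence over the RNA-seq RPKM of its transcript, and the quantity tested is its change from 6 h to 21 h, the part of the footprint change that the RNA change does not share. KPC cells come from mice carrying a Trp53 R172H allele recombined by Pdx1-Cre, and every library here carries that background. Footprints and RNA were each sequenced from 2 libraries of untreated cells (PBS by the study's methods), 2 of cells at 6 h of Cis and 2 at 21 h, at 20 μM, so that 8 of the 12 libraries enter the comparison and the other 4 give the level without Cis. No labelled untreated library belongs to either time, so time in culture and time in Cis cannot be told apart. Nothing in the labels says that the 2 libraries of a group came from separate cultures, and p-values then measure only the spread between them.

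A ribosome protects about the length of mRNA it covers from nuclease, so footprints count ribosomes on a coding sequence while RNA-seq counts the message. The number of ribosomes per message depends on how often they initiate and on how long they take to read through, and the ratio does not separate these. Under stress, phosphorylation of eIF2 lowers initiation on most messages and favours some with upstream open reading frames (uORFs), among them Atf4, and the mTOR pathway controls messages that begin with a run of pyrimidines (5′ TOP messages), which encode ribosomal proteins and elongation factors. Cisplatin crosslinks DNA and triggers damage signalling.

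From 6 h to 21 h, TE rose for 56 of the 9187 genes (0.610%) and fell for 38 (0.414%), 94 in all (1.02%; limma with Benjamini-Hochberg adjustment, adjusted p under 0.05). The rises included genes of the respiratory and translation machinery. Of those tested, 8 of 10 mitochondrially encoded genes and 19 of 72 ribosomal protein genes outside the stalk passed. The remaining 29 of the 56 rises were neither. Atf4, the leading transcription factor of the integrated stress response (ISR), both ferritin subunits Fth1 and Ftl1, and the antizyme Oaz1 rose as well. The falls included the splicing regulators Rbm39, Hnrnpab and Luc7l3, and Rsrc2, whose protein is rich in arginine and serine. Footprints alone rose for 1103 genes (12.0%) and fell for 1226 (13.3%), and RNA rose for 1131 (12.3%) and fell for 1030 (11.2%), and most of these genes had no TE change past the threshold. Counts of footprint and RNA changes in the lists below are to be read beside these shares. At an unadjusted p under 0.05, 1243 of the 9187 genes passed in TE, 548 higher and 695 lower. Counts at this threshold in the lists below are to be read beside that share of all genes. The TE change lay above 0 for 4239 of the 9187 genes (46.1%). Counts above 0 in the lists are to be read beside this share.

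**Figure D1:**
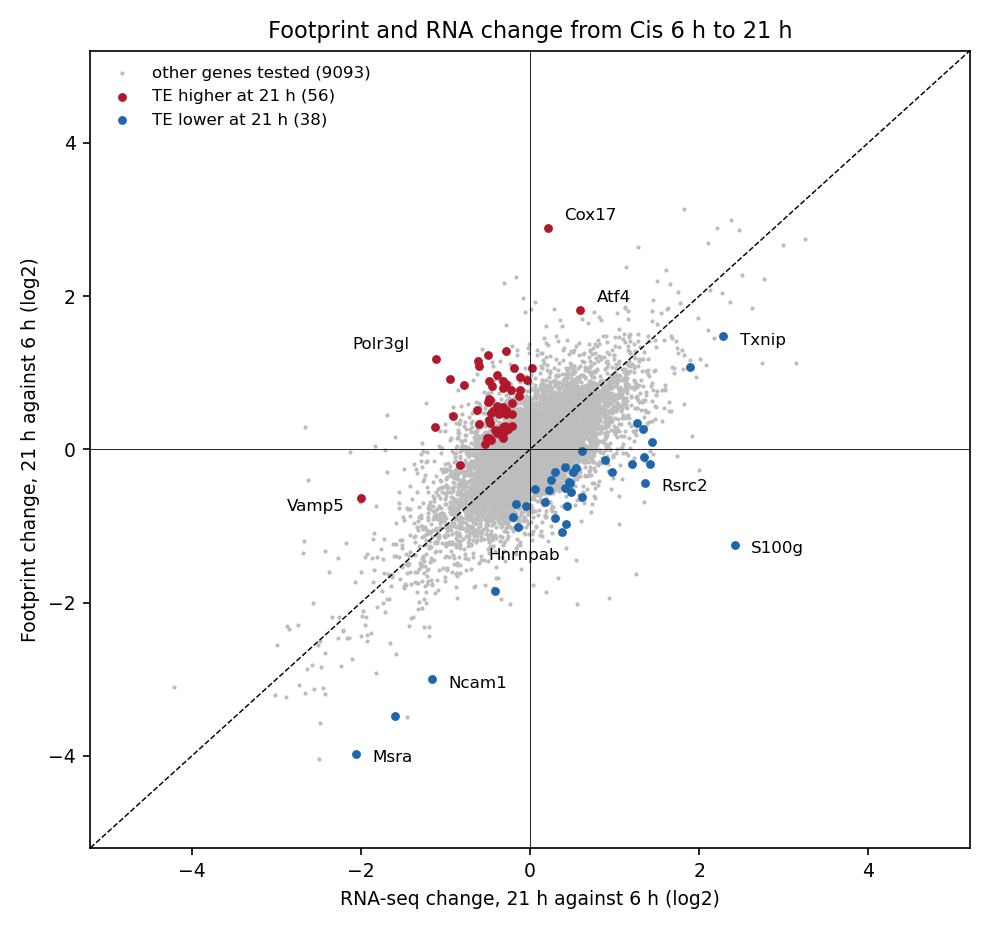
Change in footprints (vertical axis, log2) against change in RNA-seq (horizontal axis, log2) from Cis 6 h to 21 h for the 9187 genes tested, from 2 libraries per assay and time; the dashed line marks equal change. The 56 genes with higher TE (red) lie above the line, 51 of them with footprints up and RNA down, and the 38 with lower TE (blue) lie below it.

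Of the 56 rises, 51 had more footprints and less RNA at 21 h, with medians on the log2 scale of 0.94 for TE, 0.53 for footprints and -0.39 for RNA. Atf4, Cox17 and Nme2 were higher in both assays, and Hnrnpd and Vamp5 lower in both. The footprint test alone passed for 44 of the 56 as higher, the RNA test for 37 as lower, and both of these for 25. Among the 38 falls, 25 had fewer footprints and more RNA, 8 were lower in both assays and 5, including Txnip and Luc7l3, were higher in both. Their medians were -0.97 for TE, -0.47 for footprints and 0.45 for RNA.

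RPKM values of single libraries are given as deposited. Changes and ratios are on values scaled within each assay, with factors of 0.981 to 1.02 for footprints and 0.959 to 0.963 at 6 h and 1.04 to 1.09 at 21 h for RNA, so a change is relative to the other genes of its assay and one common to all genes is not seen. The median TE change of all genes tested was -0.04, and it was -0.15 with the RPKM as deposited, without scaling, where 42 genes rose and 112 fell in place of 56 and 38. None of the 94 called genes turned its direction under any alternative run. The calls depend on the number of libraries: leaving out each of the 8 Cis libraries in turn left 13 to 38 rises and 4 to 33 falls, and 13 genes kept their calls in all 8 fits. These included Atf4, Fth1, Rpl36a, Rpl39, mt-Co1, mt-Co2, mt-Nd2, mt-Nd4l and mt-Nd5 among the rises and Rbm39, Rsrc2 and Cav2 among the falls. With a variance that does not follow the expression level (eBayes without the trend), mt-Nd4l was the 1 rise and S100g the 1 fall that remained.

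Values rest on a depth of 3375480 to 5204127 footprint reads and 1985344 to 2901692 RNA-seq reads per library. Of the RNA-seq reads, 51.8 to 56.6% fell on 3 transcripts (Lars2, Tmem38b and Mettl26), which left 862476 to 1341584 for the rest. Pairs of replicates correlated across genes on the log2 scale with r of 0.988 to 0.991 for footprints and 0.968 to 0.976 for RNA, genes not being independent, and differed beyond counting noise (chi-square per degree of freedom 1.45 to 3.97). The epithelial markers Krt8, Krt18, Krt19 and Cdh1 were read in every library, Epcam had 9 footprint reads at most, and the summed footprint RPKM of 9 epithelial markers was 9299.55 to 9356 at 6 h and 6697 to 6838 at 21 h. Leukocyte markers summed to 4.204 to 6.13 at 6 h and 12.998 to 14.0 at 21 h in footprints, and to 0.307 to 1.07 and 2.43 to 5.14 in RNA, with Ptprc at 3 footprint reads or fewer. Endothelial markers did not exceed 0.666 in footprints, and fibroblast markers 9.72. In bulk samples, fewer cells of a type and less RNA per cell cannot be told apart, and the part of other cells in the results was not tested.

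Mitochondrially encoded genes had the highest median TE change of the gene lists examined. They encode core subunits of the respiratory chain and the ATP synthase and are read by the ribosomes of the mitochondrion, on which cycloheximide, present in the lysis buffer, does not act. All 10 genes tested had a TE change above 0, 8 passed the test, and the median was 1.13, beside -0.04 for all genes. In footprints 9 of the 10 rose and none fell, and in RNA 5 fell and none rose, with medians of 0.81 and -0.31.

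Footprints of mt-Nd4l, a subunit of complex I, were 477 and 389.7 untreated, 352 and 372 at 6 h and 762 and 875 at 21 h in RPKM. Its RNA was 245 and 246 untreated, 217 and 229 at 6 h and 150.3 and 172.4 at 21 h. Both footprint libraries at 21 h stood above all other footprint libraries and both RNA libraries below all other RNA libraries, and the TE change was 1.77 (SE 0.14, adjusted p = 0.000227), the lowest adjusted p in the comparison. The ratio of footprint to RNA RPKM was 1.79 untreated, 1.55 at 6 h and 5.33 at 21 h. For mt-Co1, the catalytic subunit of cytochrome c oxidase, footprints were 5714 and 4551 untreated, 4095 and 4421 at 6 h and 7879 and 7655 at 21 h, and RNA was 2737 and 2622 untreated, 2630.3 and 2720.2 at 6 h and 2546 and 2332 at 21 h. Again the footprint libraries at 21 h were the highest and the RNA libraries the lowest, with a TE change of 1.13 (SE 0.13, adjusted p = 0.00285). The oxidase subunit mt-Co2 had footprints of 3736 and 2724 untreated, 2512 and 2705 at 6 h and 5781 and 5260.3 at 21 h and RNA of 1958 and 1918 untreated, 1662 and 1877 at 6 h and 1745 and 1695 at 21 h. Its RNA at 21 h lay within the range at 6 h, and its TE change of 1.25 (SE 0.16, adjusted p = 0.00519) came with a footprint change of 1.06 and an RNA change of -0.19.

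The other complex I subunits that passed were mt-Nd2 at 1.37 (SE 0.15, adjusted p = 0.00272), mt-Nd5 at 1.28 (SE 0.18, adjusted p = 0.00733), mt-Nd1 at 1.12 (SE 0.22, adjusted p = 0.0327), mt-Nd3 at 0.94 (SE 0.16, adjusted p = 0.0267) and mt-Nd6 at 0.89 (SE 0.17, adjusted p = 0.0308). The ATP synthase subunits mt-Atp6, at 0.81 (SE 0.21, adjusted p = 0.106), and mt-Atp8, at 0.40 (SE 0.20, adjusted p = 0.423), did not pass. In every one of the 10 the ratio at 21 h was also above that of untreated cells, with medians of 1.74 untreated, 1.47 at 6 h and 3.34 at 21 h. The calls of mt-Nd1, mt-Nd3 and mt-Nd6 held in 0, 2 and 1 of the 8 fits without 1 library, with adjusted p up to 0.146, 0.112 and 0.126.

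Of 75 nuclear respiratory chain and ATP synthase subunits tested, none passed in limma's test in either direction, 14 had an unadjusted p under 0.05, 49 lay above 0 and the median was 0.10 (-0.03 without scaling). The lowest p values were those of Cox7c, a subunit of cytochrome c oxidase, at 0.52 (SE 0.12, adjusted p = 0.0725), and Ndufa6, of complex I, at -0.47 (SE 0.12, adjusted p = 0.0999). Proteins of the mitochondrial ribosome, which translates the mitochondrial messages, gave none of 78 past the threshold, 14 at an unadjusted p under 0.05 and a median of -0.03, with Mrps10 at 0.98 (SE 0.22, adjusted p = 0.0672). Cox17, a copper chaperone for cytochrome c oxidase outside these lists, had the largest rise of all, at 2.68 (SE 0.42, adjusted p = 0.0163), from footprints of 4 and 3 at 6 h and 22 and 30 at 21 h in reads and RNA reads of 11 and 6 at 6 h and 15 and 9 at 21 h. Its call held in 5 of the 8 fits without 1 library.

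**Figure D2:**
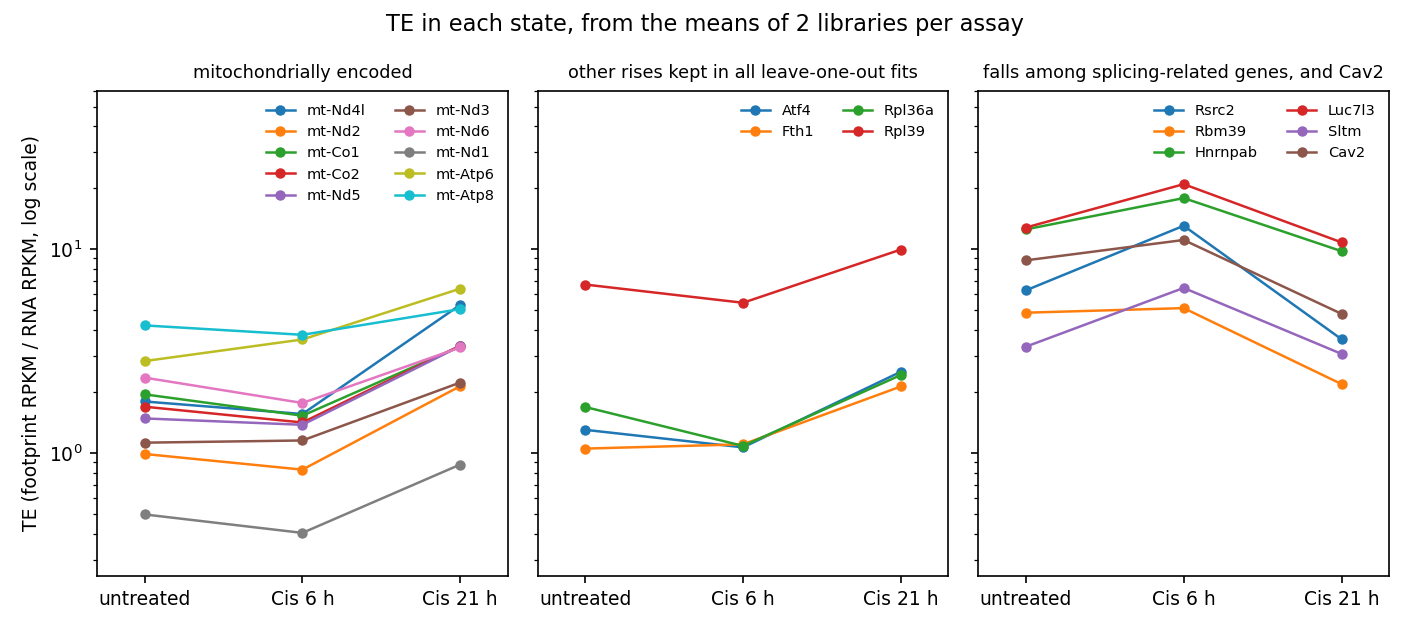
TE, as mean footprint RPKM over mean RNA RPKM of 2 libraries per assay (log scale), in untreated cells and at 6 h and 21 h of Cis, for mitochondrially encoded genes (left), 4 other rises (middle) and 6 falls (right). The left and middle genes are highest at 21 h, and the genes on the right are lowest at 21 h.

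Most ribosomal protein genes lay above 0 in TE, beside 46.1% of all genes tested. Of 41 large subunit genes without the stalk, 10 rose and none fell, and 37 lay above 0 with a median of 0.35. Of 31 small subunit genes, 9 rose and none fell, and 29 lay above 0 with a median of 0.37. The median footprint changes were 0.09 and 0.07, and the median RNA changes -0.27 and -0.31. RNA passed as lower for 23 of the 41 and 22 of the 31, beside 11.2% of all genes. Footprints passed as higher for 9 and 6 and as lower for 6 and 4, beside 12.0% and 13.3% of all genes. With quantile normalization the medians in TE were 0.14 and 0.18, and without scaling 0.22 and 0.24.

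Footprints of Rpl36a, a protein of the large subunit, were 754 and 729 untreated, 579 and 584 at 6 h and 851 and 1025 at 21 h, and its RNA was 406 and 489 untreated, 524 and 505 at 6 h and 395 and 421 at 21 h. Footprints were lowest at 6 h and highest at 21 h, and RNA was lower at 21 h than at 6 h without overlap, with a TE change of 1.15 (SE 0.14, adjusted p = 0.00315). Rpl39, one of the shortest ribosomal proteins, had footprints of 2659 and 2425 untreated, 2280.4 and 2364 at 6 h and 3441 and 3462 at 21 h and RNA of 399 and 369 untreated, 387 and 428 at 6 h and 376 and 350.2 at 21 h. Its footprints at 21 h exceeded all others, its RNA at 21 h lay below both libraries at 6 h, and its TE change was 0.87 (SE 0.11, adjusted p = 0.00519). Rps26, of the small subunit, had footprints of 812 and 769.9 untreated, 696 and 776 at 6 h and 1166 and 1402 at 21 h and RNA of 392 and 449 untreated, 419 and 375 at 6 h and 385 and 367 at 21 h. Only its footprints separated the times, with a change of 0.78 beside -0.23 in RNA, and the TE change was 1.005 (SE 0.15, adjusted p = 0.01). Rps9 had footprints of 2666 and 2694 at 6 h and 3020.3 and 2990.4 at 21 h and RNA of 521 and 476 at 6 h and 388 and 403 at 21 h. Both assays separated the times, with changes of 0.14 in footprints and -0.49 in RNA, and TE changed by 0.63 (SE 0.10, adjusted p = 0.0131).

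Other large subunit genes that rose were Rpl9 at 1.14, Rpl36 at 0.67, Rpl14 at 0.61, Rpl27a at 0.55, Rpl27 at 0.54, Rpl32 at 0.52 and Rpl13 at 0.46. In the small subunit they included Rps23 at 0.84, Rps29 at 0.82, Rps24 at 0.74, Rps13 at 0.69, Rps19 at 0.61 and Rps15 at 0.58. The calls of Rpl36a and Rpl39 held in all 8 fits without 1 library, and those of the other ribosomal protein genes named here in 0 to 7. Ribosomal protein genes have many processed pseudogenes of near-identical sequence, so reads that match both could be divided either way. The 40 large subunit genes of 41 with a higher ratio at 21 h than in untreated cells, and the 27 small subunit genes of 31, compare with 45.5% of all genes.

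The stalk genes were kept apart from the other lists. Rplp0, Rplp1, Rplp2 and Rpl12 form or anchor the lateral stalk of the large subunit, which recruits and activates the elongation factors. Footprints of Rpl12 were 848 and 846 untreated, 595 and 629 at 6 h and 396 and 431 at 21 h, while its RNA was 777 and 787 untreated, 777 and 838 at 6 h and 822 and 778 at 21 h. Those of Rplp1 were 1128 and 1246 untreated, 1026 and 1011 at 6 h and 713 and 686 at 21 h, with RNA of 1809 and 1705 untreated, 1959 and 1823 at 6 h and 1802 and 1889 at 21 h. Rplp0 footprints were 866 and 997 untreated, 898 and 855 at 6 h and 533 and 637 at 21 h, with RNA of 1014 and 954 untreated, 1130.2 and 1086 at 6 h and 1059 and 1094 at 21 h. In all 3 genes both footprint libraries at 21 h were the lowest of the 6, and RNA overlapped between the times. Footprints of Rpl12, Rplp1 and Rplp0 fell by 0.59, 0.56 and 0.61 on the log2 scale (adjusted p = 0.000256, 0.00028 and 0.000964). Their TE changes of -0.42 (SE 0.11, adjusted p = 0.0999), -0.38 (SE 0.11, adjusted p = 0.127) and -0.42 (SE 0.14, adjusted p = 0.202) did not pass. Rplp2 lay on the other side, at 0.52 (SE 0.20, adjusted p = 0.293), and no stalk gene passed in TE, although all 4 had an unadjusted p under 0.05, and 2 were lower past the threshold by limma-voom on recovered reads.

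**Figure D3:**
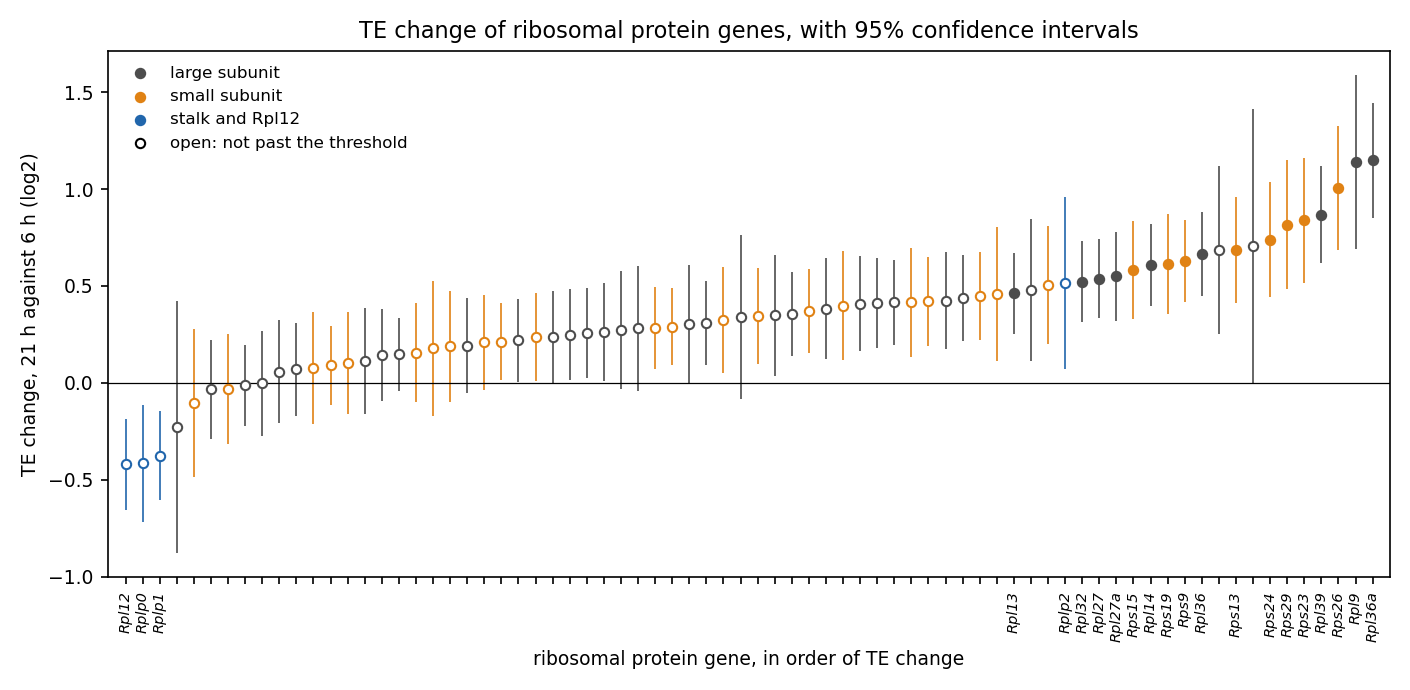
TE change from 6 h to 21 h (log2, vertical axis) of the ribosomal protein genes reported here, in order, with 95% confidence intervals from limma; filled points passed the threshold, and these and the stalk genes are labelled. All filled points lie above 0.4, and Rpl12, Rplp0 and Rplp1 are the 3 lowest.

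Messages with a 5′ TOP other than those of ribosomal proteins were a separate list. Of 21 tested, 3 rose, none fell and 18 lay above 0, with a median of 0.22. Eef2, the elongation factor that moves the ribosome along the message, had footprints of 682 and 665 at 6 h and 814 and 879 at 21 h and RNA of 384 and 345 at 6 h and 324 and 333 at 21 h. Footprints were higher and RNA lower at 21 h without overlap, and the TE change was 0.61 (SE 0.12, adjusted p = 0.0347). Eef1g, a subunit of the factor that recharges eEF1A, rose by 0.60 and Eif3h, a subunit of the initiation factor eIF3, by 0.60 (adjusted p = 0.0488 and 0.0291). None of these 3 genes kept its call without scaling or in all 8 fits without 1 library. With quantile normalization the calls of Eef2 and Eef1g were lost as well. Initiation factors as a list gave none past the threshold of 32, 4 with an unadjusted p under 0.05 and a median of -0.03, with Eif3m at 0.61 (SE 0.14, adjusted p = 0.0589) and Eif2b1 at 0.62 (SE 0.16, adjusted p = 0.101). Ribosome biogenesis genes gave none of 36, 1 with an unadjusted p under 0.05 and a median of 0.02, with Nop16 at -0.59 (SE 0.28, adjusted p = 0.384) and Nolc1 at -0.39 (SE 0.16, adjusted p = 0.312). Of 18 aminoacyl-tRNA synthetases, Dars, the aspartyl enzyme, was the 1 that passed, at -0.68 (SE 0.13, adjusted p = 0.0355).

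Runs of pyrimidines near the annotated starts of these genes were counted, whether or not they open the message. Starts from RefSeq on GRCm38.p6 were matched by symbol for 53 of the 72 ribosomal protein genes outside the stalk and for 3 of the 4 stalk genes. A gene with several annotated starts was represented by the start with the longest run, and the opposite strand was read at that start. This choice raises the shares on the strand of the gene only, so the 2 strands are not compared on equal terms. A run of at least 8 bases, each C or T, within 50 bases on either side of the start and on the strand of the gene was present for 45 of the 53 (84.9%). It was present for 2 of the 3 stalk genes, for 9 of 15 other TOP genes (60%), for 35.7% of all genes tested with a match and for 39.3% of all genes in the table. On the opposite strand, it was found for 12 of the 53 (22.6%) and for 32.8% of the genes tested. The matched ribosomal protein genes that rose in TE had it in 13 of 14 cases. Shown 5′ to 3′ on the strand of the gene, with the longest run in capitals, are 3 genes that rose in TE, Rpl7a and Rpl35a, with long runs and little TE change, and 2 stalk genes.
Rpl36a (chrX:134585672-134585701, plus strand): cggctctagCCTCTCTCTTTCCgagctgct
Rpl39 (chrX:37085173-37085202, minus strand): gttcttccggtcccggCCTTTCTCTTCTCC
Rps26 (chr10:128626485-128626514, minus strand): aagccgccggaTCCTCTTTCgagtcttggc
Rpl7a (chr2:26910788-26910817, plus strand): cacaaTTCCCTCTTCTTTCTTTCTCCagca
Rpl35a (chr16:33056468-33056497, plus strand): cggggcttgCCTTCCTCTTTCCgccatctt
Rplp0 (chr5:115559466-115559495, plus strand): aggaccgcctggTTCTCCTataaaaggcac
Rpl12 (chr2:32961732-32961761, plus strand): ggaggaggcaacggtgcaaCTTTCTTCggt
The run had 13 bases in Rpl36a and 9 in Rps26. In Rpl39 it had at least 14, since it reached the edge of the window searched. In Rpl7a, with a TE change of 0.15 (SE 0.11, adjusted p = 0.604), it had 21 bases, and in Rpl35a, at -0.0034 (SE 0.12, adjusted p = 0.996), it had 13. The longest runs in Rplp0 and Rpl12 had 7 and 8. Rplp2, the other matched stalk gene and not shown, had 10, with a TE change of 0.52 (SE 0.20, adjusted p = 0.293). Counted from the annotated start, negative being upstream, the runs began at 28 in Rpl36a, 37 in Rpl39, 4 in Rps26 and -14 in Rpl7a. They began at 25 in Rpl35a, 12 in Rplp0 and 40 in Rpl12. The windows describe letters near annotated starts, which need not be the starts used in these cells. The coordinates belong to another build than the files.

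Atf4 was the 1 stress-response gene of the uORF, ISR and unfolded protein response lists that passed. Its footprints were 83.0 and 93.9 untreated, 96.1 and 98.2 at 6 h and 373 and 325 at 21 h, and its RNA was 67.1 and 71.1 untreated, 79.4 and 95.2 at 6 h and 146 and 146 at 21 h. Both assays at 21 h stood above all 4 earlier libraries, and footprints changed by 1.82 on the log2 scale against 0.59 for RNA, which left a TE change of 1.22 (SE 0.16, adjusted p = 0.00519). The ratio of footprint to RNA RPKM was 1.298 untreated, 1.07 at 6 h and 2.503 at 21 h. Of 17 messages with regulatory uORFs, 11 lay above 0 and the median was 0.10 (-0.03 without scaling). Atf5, a related factor, was at 0.89 (SE 0.29, adjusted p = 0.192), Sat1, which acetylates polyamines, at 0.74 (SE 0.25, adjusted p = 0.203), and Ppp1r15a, which directs the phosphatase to eIF2, at 0.73 (SE 0.24, adjusted p = 0.204). Ibtk was the lowest, at -0.71 (SE 0.26, adjusted p = 0.251).

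Ddit3 (CHOP), which Atf4 activates and which has a uORF of its own, had footprints of 11.8 and 11.1 untreated, 18.2 and 20.0 at 6 h and 153 and 140.3 at 21 h and RNA of 10.5 and 18.6 untreated, 11.9 and 19.0 at 6 h and 83.0 and 75.8 at 21 h. Both rose far above the earlier libraries, by 2.89 and 2.21 on the log2 scale, and the TE change of 0.68 (SE 0.33, adjusted p = 0.4) had an interval of -0.05 to 1.41. ISR target genes gave none of 22 past the threshold, 2 with an unadjusted p under 0.05 and a median of -0.10. Chac1, which degrades glutathione, was at 0.77 (SE 0.28, adjusted p = 0.257) and Phgdh, of serine synthesis, at -0.35 (SE 0.14, adjusted p = 0.286). Sensors and factors of the unfolded protein response gave none of 12, 2 with an unadjusted p under 0.05 and a median of 0.04, with Xbp1 at 0.62 (SE 0.23, adjusted p = 0.264) and Atf6b at -0.66 (SE 0.25, adjusted p = 0.268).

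Ern1 encodes IRE1α, the sensor of the endoplasmic reticulum whose synthesis under Cis the study asked about. Its footprints were 10.4 and 8.34 untreated, 8.80 and 6.87 at 6 h and 6.48 and 7.03 at 21 h, and its RNA was 4.03 and 4.81 untreated, 2.68 and 3.37 at 6 h and 2.53 and 3.17 at 21 h. The footprint libraries at 21 h lay inside or just below the range at 6 h, and the RNA libraries overlapped. TE changed by -0.0087 (SE 0.30, adjusted p = 0.995), with an interval of -0.67 to 0.65, so that changes within it could not be told from 0. The depth behind it was 68 to 121 footprint reads and 37 to 54 RNA reads per Cis library.

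Chaperones and degradation factors of the endoplasmic reticulum had a median below that of all genes. Of 29 tested, 1 fell, none rose, and 6 lay above 0, with a median of -0.23. Creld2, an ER stress-inducible isomerase, had footprints of 52.6 and 50.5 at 6 h and 36.4 and 40.9 at 21 h and RNA of 12.2 and 12.999 at 6 h and 21.1 and 18.2 at 21 h. Footprints were lower and RNA higher at 21 h without overlap, and the TE change was -0.90 (SE 0.19, adjusted p = 0.0441), a call that held in 1 of the 8 fits without 1 library. Heat shock genes gave none of 13, also at an unadjusted p under 0.05, with a median of 0.01. Among them Hspa8, the constitutive cytosolic Hsp70, fell in both assays by 0.54 and 0.71 on the log2 scale. The TE change of Hspa8 was 0.17 (SE 0.09, adjusted p = 0.407) and -0.00799 with quantile normalization. Dnajb1, its co-chaperone, was at -0.47 (SE 0.24, adjusted p = 0.408).

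Ferritin stores iron, and its messages are held back by iron regulatory proteins bound to a hairpin in the 5′ UTR when iron is scarce. Footprints of the heavy chain Fth1 were 774 and 639.7 untreated, 926 and 913 at 6 h and 1887 and 1629 at 21 h, and its RNA was 663 and 699.9 untreated, 795 and 802 at 6 h and 869.6 and 868 at 21 h. Footprints at 21 h stood far above the rest. RNA was also highest at 21 h as deposited, with a change of -0.03 after scaling, which left a TE change of 0.94 (SE 0.12, adjusted p = 0.00519). The light chain Ftl1 had footprints of 11.9 and 14.1 untreated, 19.8 and 15.6 at 6 h and 32.6 and 24.5 at 21 h and RNA of 164 and 180.1 untreated, 216 and 199 at 6 h and 156 and 177 at 21 h. Its footprints were the highest at 21 h and its RNA was below that at 6 h without overlap, and TE changed by 1.12 (SE 0.22, adjusted p = 0.0327), on 29 to 66 footprint reads per Cis library. Ftl1 also has near-identical pseudogenes, and its call held in 1 of the 8 fits without 1 library. Of the 15 iron genes tested, Pcbp2, which carries iron to ferritin and binds RNA, was the 1 that fell, at -0.58 (SE 0.12, adjusted p = 0.0441). Tfrc, the transferrin receptor, was at -0.29 (SE 0.13, adjusted p = 0.369), and Aco1 and Ireb2, which encode the iron regulatory proteins, were at 0.02 (SE 0.25, adjusted p = 0.983) and 0.26 (SE 0.20, adjusted p = 0.613). Alas1 and Slc40a1 were at -0.27 (SE 0.17, adjusted p = 0.512) and 0.41 (SE 0.37, adjusted p = 0.671).

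Oaz1, antizyme, is read through a ribosomal frameshift that polyamines favour, and it targets ornithine decarboxylase for degradation. Its footprints were 241 and 240.4 untreated, 211 and 225 at 6 h and 328 and 347 at 21 h, and RNA was 125 and 125 untreated, 117 and 123 at 6 h and 109 and 121 at 21 h. The footprint libraries at 21 h were the highest, RNA overlapped between the times, and TE changed by 0.82 (SE 0.11, adjusted p = 0.00577). The call held in 7 of the 8 fits without 1 library. The other 9 polyamine genes did not pass, with Oaz2 at 0.47 (SE 0.20, adjusted p = 0.335) and Odc1, the decarboxylase, at -0.12 (SE 0.14, adjusted p = 0.742).

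**Figure D4:**
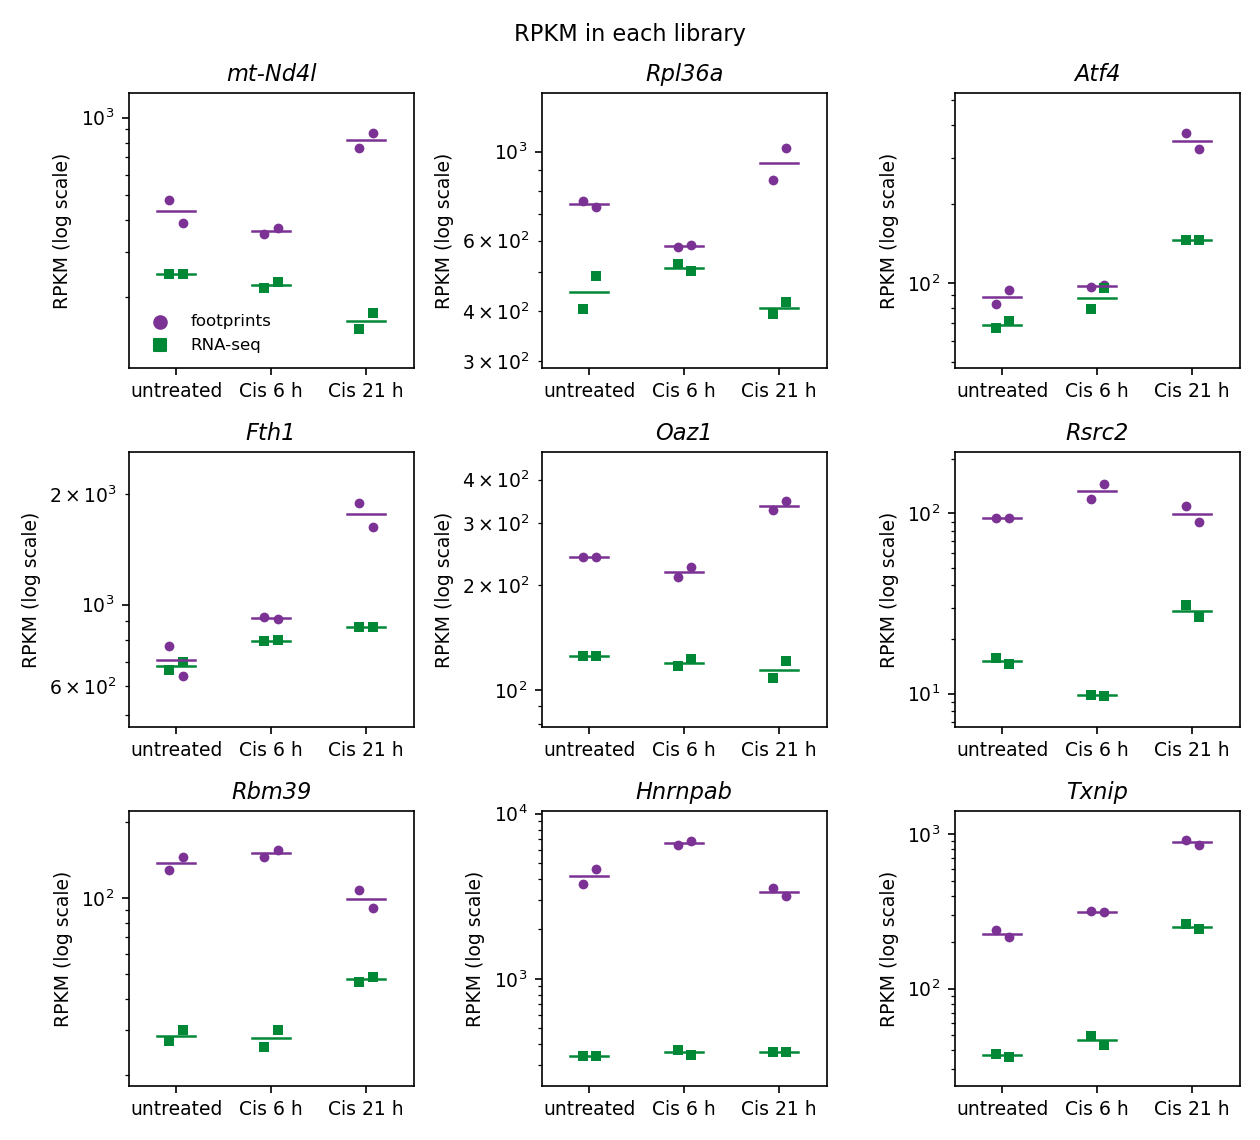
Deposited RPKM (log scale) of 9 genes in each of the 12 libraries, footprints as circles and RNA-seq as squares, with the mean of the 2 libraries of a group as a bar. From 6 h to 21 h the footprints of mt-Nd4l, Fth1 and Oaz1 rise while RNA falls or moves by less, and in Rsrc2 and Rbm39 RNA rises while footprints fall.

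Among 53 splicing regulators tested, the SR proteins, hnRNPs and related factors, 3 fell and 1 rose, and the median was -0.07. Rbm39, a cofactor of early spliceosome assembly, had footprints of 129 and 146 untreated, 146 and 155 at 6 h and 107 and 91.5 at 21 h and RNA of 27.2 and 30.05 untreated, 25.8 and 30.2 at 6 h and 46.8 and 49.0 at 21 h. At 21 h both footprint libraries were the lowest and both RNA libraries the highest of the 6, and TE changed by -1.23 (SE 0.17, adjusted p = 0.00577). Hnrnpab footprints were 3755 and 4618 untreated, 6498 and 6825 at 6 h and 3562 and 3155 at 21 h, and its RNA was 341 and 340.1 untreated, 369 and 347 at 6 h and 362 and 358 at 21 h. Footprints were highest at 6 h and lowest at 21 h while RNA overlapped between the times, with a TE change of -0.87 (SE 0.14, adjusted p = 0.0175) and a ratio of 12.5 untreated, 17.8 at 6 h and 9.77 at 21 h. Luc7l3, associated with the U1 particle, had footprints of 294 and 281 at 6 h and 387 and 356 at 21 h and RNA of 13.3 and 13.1 at 6 h and 34.6 and 37.6 at 21 h. Both assays were higher at 21 h, RNA by more, and TE changed by -0.92 (SE 0.17, adjusted p = 0.0291). Hnrnpd, which binds AU-rich elements, was the 1 that rose, at 0.63 (SE 0.13, adjusted p = 0.0493), with an RNA change of -0.83 and a footprint change of -0.20. The calls of Hnrnpab, Luc7l3 and Hnrnpd held in 3, 0 and 0 of the 8 fits without 1 library.

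Rsrc2 had the largest fall among the 13 genes whose calls held in all 8 fits without 1 library. Its footprints were 94.3 and 94.4 untreated, 119.8 and 146 at 6 h and 109.6 and 89.7 at 21 h, and its RNA was 15.8 and 14.7 untreated, 9.79 and 9.78 at 6 h and 31.0 and 26.7 at 21 h. RNA was lowest at 6 h and highest at 21 h, footprints were highest at 6 h, and TE changed by -1.80 (SE 0.20, adjusted p = 0.00272), with a ratio of 6.28 untreated, 13.02 at 6 h and 3.61 at 21 h. Cav2, a caveolin chosen here after its values were seen, had footprints of 234 and 271 untreated, 315 and 332 at 6 h and 181 and 171 at 21 h and RNA of 29.3 and 28.9 untreated, 27.6 and 28.2 at 6 h and 33.8 and 43.2 at 21 h. Its footprints at 21 h were below all others, its RNA at 21 h above all others, and TE changed by -1.19 (SE 0.16, adjusted p = 0.00577). Sltm, an RNA-binding protein also chosen after its values were seen, had footprints of 39.3 and 42.9 at 6 h and 28.2 and 28.3 at 21 h and RNA of 5.87 and 6.34 at 6 h and 10.004 and 9.33 at 21 h. The times did not overlap in either assay, and TE changed by -1.03 (SE 0.19, adjusted p = 0.0291), with a ratio of 3.32 untreated, 6.45 at 6 h and 3.06 at 21 h.

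Other falls were of several kinds. Riok3, a kinase of the RIO family, had footprints of 66.6 and 77.9 untreated, 104 and 108 at 6 h and 45.0 and 57.4 at 21 h and RNA of 13.2 and 14.5 at 6 h and 18.01 and 22.3 at 21 h. Footprints fell below the untreated level and TE changed by -1.45 (SE 0.22, adjusted p = 0.0101), with a call that held in 6 of the 8 fits without 1 library. Cfap97 had footprints of 21.7 and 21.7 at 6 h and 23.0 and 18.3 at 21 h and RNA of 1.23 and 1.48 at 6 h and 4.62 and 4.68 at 21 h. The footprints of both times overlapped, and the RNA did not, so that the TE change of -1.45 (SE 0.27, adjusted p = 0.0291) lay in RNA, on 5 and 7 RNA reads at 6 h. Nprl2, a subunit of a complex that restrains mTORC1, changed by -1.61 (SE 0.33, adjusted p = 0.0441), likewise on 2 and 3 RNA reads at 6 h. Hmgn5, which binds nucleosomes, changed by -1.39 (SE 0.28, adjusted p = 0.0365), Tcf19, a cell cycle regulator, by -1.35 (SE 0.25, adjusted p = 0.0291), and Gatd3a by -1.40 (SE 0.29, adjusted p = 0.0432).

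Txnip, an inhibitor of thioredoxin named after its values were seen, had footprints of 317 and 312 at 6 h and 919.7 and 858 at 21 h and RNA of 49.7 and 43.0 at 6 h and 261 and 244 at 21 h. Both rose without overlap, RNA by 2.28 and footprints by 1.47, and TE changed by -0.81 (SE 0.14, adjusted p = 0.0267). Ncam1, a neural cell adhesion molecule, had footprints of 24.6 and 27.5 untreated, 14.2 and 14.0 at 6 h and 1.92 and 0.899 at 21 h and RNA of 5.13 and 5.13 untreated, 1.96 and 2.81 at 6 h and 0.973 and 0.775 at 21 h. Both assays were lower at 6 h than untreated and lower still at 21 h, with log2 changes between the Cis times of -3.00 and -1.16, and TE changed by -1.84 (SE 0.38, adjusted p = 0.0431). Stac had TE of -1.43 (SE 0.29, adjusted p = 0.0377), with footprints of 44 and 29 reads at 6 h and 7 and 8 at 21 h. Tbc1d5, which acts on Rab7, had footprint reads of 111 and 90 at 6 h and 4 and 4 at 21 h and RNA reads of 14 and 26 at 6 h and 4 and 3 at 21 h. At 21 h it was near the floor of 3 reads, and its TE change of -1.88 (SE 0.35, adjusted p = 0.0291) did not pass in any of the 7 fits without 1 library that kept it. Msra, which repairs oxidized methionine, had footprint reads of 63 and 48 at 6 h and 2 and 2 at 21 h and RNA reads of 6 and 10 at 6 h and 0 and 1 at 21 h. With 3 reads or fewer in every library at 21 h, the TE change of Msra, at -1.91 (SE 0.36, adjusted p = 0.0326), depends on the pseudocount and was -0.95 with 0.1 in place of 0.5. S100g, a calcium-binding protein, had footprint reads of 7 and 7 at 6 h and 3 and 2 at 21 h and RNA reads of 0 and 0 at 6 h and 2 and 3 at 21 h. It was listed in no RNA library at 6 h and had 3 RNA reads at most at 21 h, so that no fold is given.

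Of the 56 rises and 38 falls, 8 in each direction averaged under 20 reads per Cis library in an assay. Polr3gl, a subunit of RNA polymerase III, changed by 2.29 (SE 0.44, adjusted p = 0.0327) with RNA reads of 11 and 11 at 6 h and 6 and 4 at 21 h. Shf changed by 1.87 (SE 0.39, adjusted p = 0.0488) with RNA reads of 9 and 9 at 6 h and 5 and 4 at 21 h. Rnf41, a ubiquitin ligase, had footprints of 7.88 and 9.48 untreated, 4.03 and 5.61 at 6 h and 10.8 and 13.2 at 21 h and RNA of 4.45 and 5.54 at 6 h and 3.14 and 4.52 at 21 h. Footprints were lowest at 6 h and highest at 21 h, RNA overlapped, and TE changed by 1.72 (SE 0.33, adjusted p = 0.0327). Ier5l changed by 1.68 (SE 0.35, adjusted p = 0.0441), Metrnl, a secreted factor, by 1.62 (SE 0.31, adjusted p = 0.0327), Tmem205 by 1.41 (SE 0.25, adjusted p = 0.0289) and Antkmt, a mitochondrial lysine methyltransferase, by 1.37 (SE 0.29, adjusted p = 0.0494). Vamp5, a vesicle fusion protein, had footprints of 94.7 and 107 at 6 h and 74.5 and 58.0 at 21 h and RNA of 25.1 and 25.7 at 6 h and 8.27 and 5.38 at 21 h. Both fell without overlap, RNA by more, and TE changed by 1.36 (SE 0.27, adjusted p = 0.0353). None of the rises named from Polr3gl to Vamp5 kept its call in all 8 fits without 1 library. With limma-voom on recovered reads, Rnf41 and Ier5l kept theirs and the others did not.

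Of 30 immediate early genes, footprints rose for 23 and RNA for 23, beside 12.0% and 12.3% of all genes, none passed in TE, 4 had an unadjusted p under 0.05, and the medians were 1.06 for footprints, 1.08 for RNA and -0.11 for TE. Jun had footprints of 18.3 and 19.5 at 6 h and 73.4 and 67.1 at 21 h and RNA of 4.42 and 3.53 at 6 h and 28.0 and 31.8 at 21 h. Both rose several-fold without overlap, and TE was at -0.78 (SE 0.21, adjusted p = 0.121). Klf6 was at -0.45 (SE 0.15, adjusted p = 0.203). Of 26 p53 targets, footprints rose for 10 and RNA for 10, with medians of 0.52 and 0.45, none passed in TE and 2 had an unadjusted p under 0.05. Ddb2, of nucleotide excision repair, was at 1.205 (SE 0.55, adjusted p = 0.368) and Phlda3, an inhibitor of Akt, at 0.61 (SE 0.28, adjusted p = 0.364).

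NF-kB targets and cytokines rose in RNA for 18 of 31 and in footprints for 11, beside 12.3% and 12.0% of all genes. Footprints fell for 4, and 8 of the 31 lay above 0 in TE with a median of -0.20. The 1 that passed in TE rose. This was Ccl5, a chemokine, with footprints of 97.1 and 122 untreated, 71.8 and 62.9 at 6 h and 149 and 117 at 21 h and RNA of 35.1 and 34.3 untreated, 26.5 and 30.1 at 6 h and 27.4 and 30.6 at 21 h. Footprints were lowest at 6 h and RNA overlapped between the times, and TE changed by 1.06 (SE 0.21, adjusted p = 0.0327), a call that held in 2 of the 8 fits without 1 library. The summed leukocyte markers were higher at 21 h too, as given above. None of the 9 genes of the cGAS-STING pathway tested passed, 1 had an unadjusted p under 0.05, and their median was 0.10 (-0.01 without scaling). Footprints rose for 2 of the 9, beside 12.0% of all genes, and RNA changed for none. Cgas, the DNA sensor, had footprints of 9.95 and 11.7 at 6 h and 22.1 and 24.8 at 21 h and RNA of 3.11 and 3.10 at 6 h and 4.45 and 5.199 at 21 h. Both assays were higher at 21 h without overlap, and TE was at 0.64 (SE 0.28, adjusted p = 0.339). Tollip was at 0.31 (SE 0.23, adjusted p = 0.6). Interferon-stimulated genes gave none of 36, 3 with an unadjusted p under 0.05 and a median of 0.07 (-0.06 without scaling), with Isg15 at -0.26 (SE 0.09, adjusted p = 0.231) and Trim25 at 0.48 (SE 0.17, adjusted p = 0.229). Among these genes footprints rose for 2 and fell for 6, beside 12.0% and 13.3% of all genes. RNA rose for none and fell for 6, beside 12.3% and 11.2% of all genes.

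Replication-dependent histones are made in S phase from messages without a poly(A) tail. They rose in RNA for 32 of 55 and in footprints for 22, beside 12.3% and 12.0% of all genes. Their median TE change was -0.29, 1 rose and 1 fell. H2bc11 footprints were 1605 and 1459 at 6 h and 1793 and 1943 at 21 h, and its RNA was 64.2 and 51.4 at 6 h and 163 and 162 at 21 h. RNA rose without overlap, footprints were higher by less, and TE changed by -1.08 (SE 0.21, adjusted p = 0.0347). H4c2 had footprints of 335 and 312 untreated, 168 and 141 at 6 h and 378 and 384 at 21 h and RNA of 66.5 and 45.1 untreated, 53.3 and 49.1 at 6 h and 41.1 and 53.02 at 21 h. Its footprints were lowest at 6 h, RNA overlapped, and TE changed by 1.56 (SE 0.23, adjusted p = 0.0101). Histone genes are near-identical copies, and reads could be divided among them. H2aw, a histone outside the list named after its values were seen, changed by -0.83 (SE 0.15, adjusted p = 0.0291). Of 37 mitosis genes, Cenpa, the centromeric histone, was the 1 that rose, at 0.82 (SE 0.16, adjusted p = 0.0327), while footprints rose for 21 and RNA for 25. In TE 12 of the 37 lay above 0, 15 had an unadjusted p under 0.05 and the median was -0.07, and limma-voom called 1 as higher and 4 as lower. DNA replication genes gave none of 43, 6 with an unadjusted p under 0.05, with Gins3 at 0.78 (SE 0.23, adjusted p = 0.144) and Orc1 at -0.69 (SE 0.22, adjusted p = 0.174), and footprints rose for 22 and RNA for 23.

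Actins and tubulins lay above 0 in 12 of 13 with a median of 0.23, and none passed, 4 having an unadjusted p under 0.05. Actg1 was at 0.36 (SE 0.11, adjusted p = 0.156) and Actb on the other side, at -0.25 (SE 0.09, adjusted p = 0.229), both with fewer footprints and less RNA at 21 h. With limma-voom 1 of the 13 passed as higher and 1 as lower. Of 37 proteasome subunits, Psma2, of the core particle, was the 1 that fell, at -0.65 (SE 0.13, adjusted p = 0.0365). Glycolytic enzymes gave none of 17 past the threshold in TE and 2 with an unadjusted p under 0.05, with Gapdh at -0.36 (SE 0.16, adjusted p = 0.335) and Pfkm at -0.76 (SE 0.28, adjusted p = 0.252). Footprints of the 17 fell for 10 and RNA for 12, beside 13.3% and 11.2% of all genes. Selenoproteins gave none of 16, with Selenow at 0.37 (SE 0.13, adjusted p = 0.229) and Selenok at 0.28 (SE 0.15, adjusted p = 0.428). mRNA export factors gave none of 21, with Nxt1 at 0.58 (SE 0.19, adjusted p = 0.189) and Eny2 at -0.38 (SE 0.13, adjusted p = 0.216). Vesicle coat, translocon and signal recognition genes gave none of 36, with Sec23b at -0.46 (SE 0.17, adjusted p = 0.264) and Sar1a at -0.43 (SE 0.14, adjusted p = 0.174). At an unadjusted p under 0.05 the selenoprotein, export and vesicle lists had 1, 2 and 3 genes. Of the lists with no gene past the threshold in limma's test, limma-voom on recovered reads called the 2 stalk genes, 1 initiation factor as higher, 1 mitochondrial ribosomal protein as lower, the 2 actin or tubulin genes and none in the others.

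**Figure D5:**
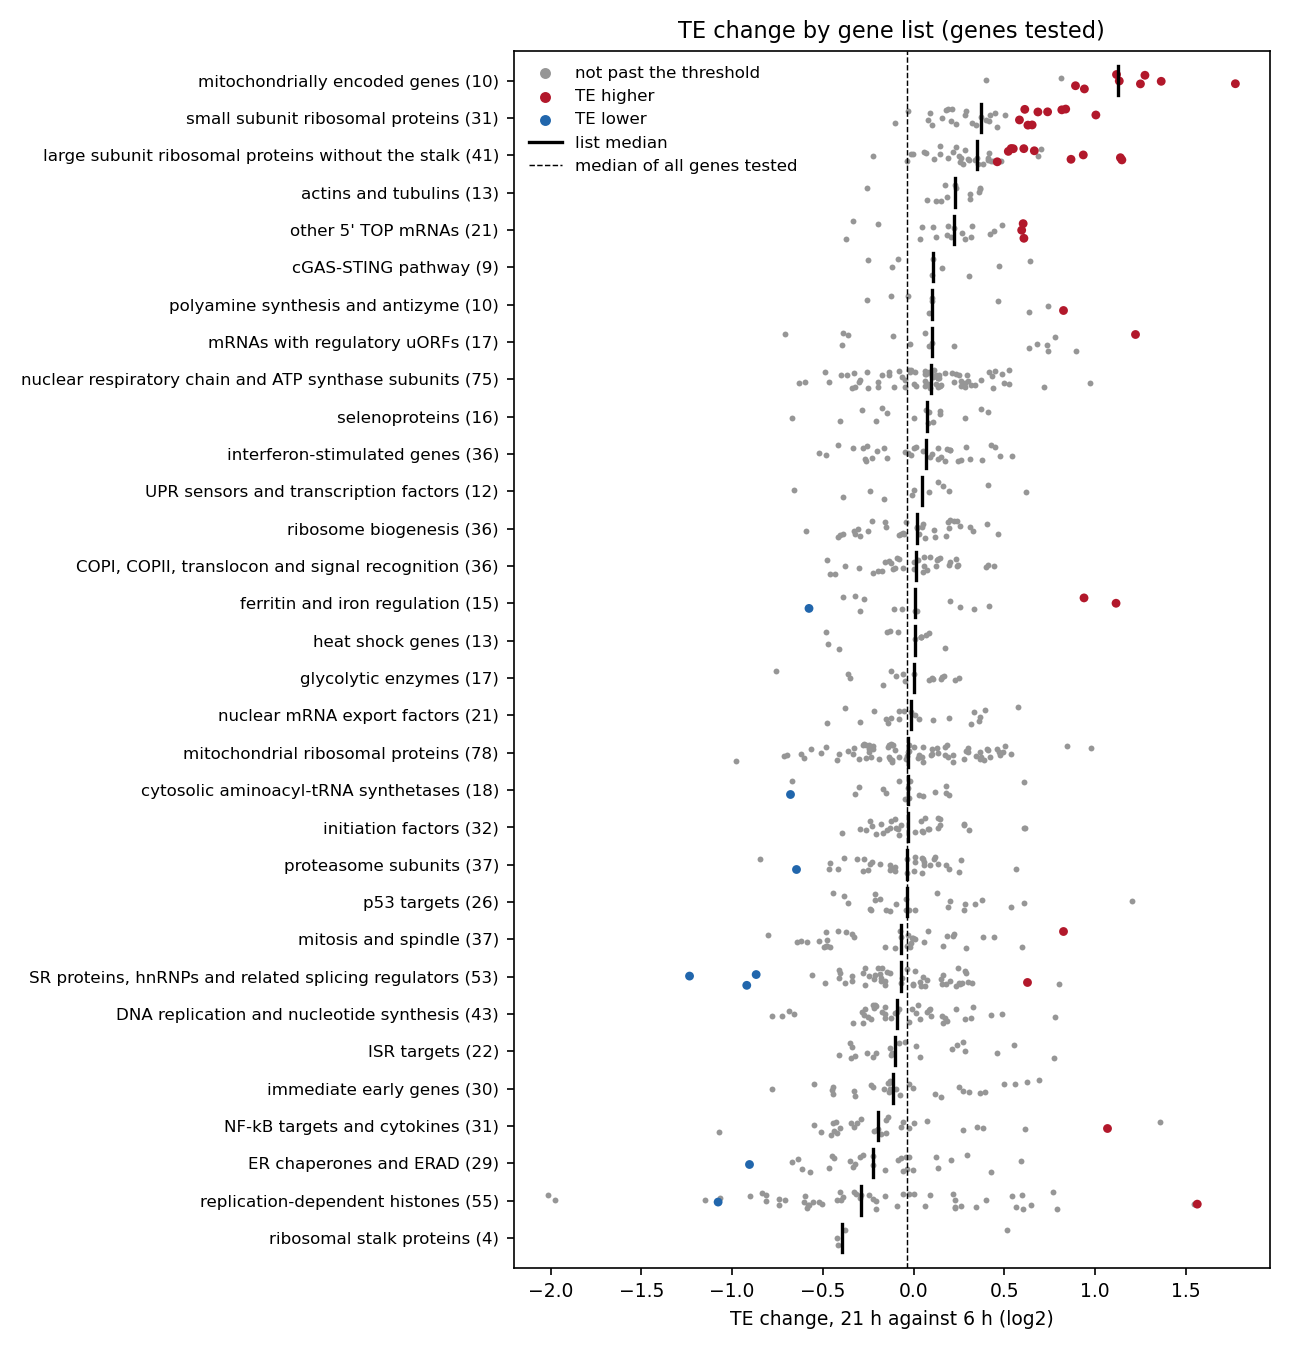
TE change from 6 h to 21 h (log2, horizontal axis) of every gene tested in 32 lists, ordered by list median (black bars), with genes past the threshold in red (higher) and blue (lower). Mitochondrially encoded genes (median 1.13) and ribosomal proteins (0.37 and 0.35) stand at the top, and the 4 stalk genes (-0.40) at the bottom; the dashed line is the median of all genes (-0.04).

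Among markers of the cells themselves none of 5 epithelial and none of 7 mesenchymal genes passed in TE, with 1 of each at an unadjusted p under 0.05 and Krt8 at -0.22 (SE 0.10, adjusted p = 0.35) and Krt18 at -0.13 (SE 0.10, adjusted p = 0.625). The mesenchymal markers Cdh2 and Zeb2 were at -0.59 (SE 0.23, adjusted p = 0.288) and -0.61 (SE 0.33, adjusted p = 0.442). Further genes named after their values were seen passed as well. Nme2, a nucleoside diphosphate kinase with a close paralog, rose, at 1.03 (SE 0.19, adjusted p = 0.0291). Anxa1, an annexin, fell, at -0.60 (SE 0.11, adjusted p = 0.0289), Ybx3, an RNA-binding protein, at -0.68 (SE 0.13, adjusted p = 0.0327), Tpm4, a tropomyosin, at -0.54 (SE 0.11, adjusted p = 0.0438) and Cnp at -1.02 (SE 0.18, adjusted p = 0.0289).

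Lengths, which the test did not use, were summarized for the called genes beside all genes tested. The median coding length was 571.5 bases for the rises, 687 for the 29 rises outside the ribosomal protein and mitochondrial genes, 1066.5 for the falls and 1338 for all genes tested. The 3′ UTR had medians of 159.5 bases for the rises, 535.5 for the falls and 926 for all, and the 5′ UTR 118, 144 and 163. In untreated cells the median ratio of footprint to RNA RPKM was 2.47 for the rises, 6.24 for the 37 falls with a ratio in each state and 3.53 for all. At 6 h the medians were 2.17, 9.44 and 3.48, and at 21 h 4.03, 4.11 and 3.47. Of the 56 rises, 55 had a higher ratio at 21 h than in untreated cells, against 45.5% of all genes. A lower ratio at 6 h than in untreated cells was found for 50 of the 56, against 51.6% of all. Of the 37 falls with a ratio, 36 were lower at 21 h than in untreated cells, against 54.5% of all. At 6 h, 33 of the 37 were higher than in untreated cells, against 48.4% of all. The 6 h libraries enter both the test and the last comparison, and the 21 h libraries both the test and the first. These lengths and ratios are given as a description, and their part in the results was not tested.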

How the data were processed

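Ribosome footprints and RNA-seq were each measured in 6 libraries of KPC cells, 2 untreated, 2 at 6 h and 2 at 21 h of Cis. The authors deposited RPKM values, footprints per coding sequence length and RNA per transcript length, each relative to the reads of the library, 1 representative transcript per gene. The submitters' processing notes name cutadapt, STAR and GRCm39, and no versions. Cells were lysed with cycloheximide, footprints of RNase I were size-selected and RNA came from the same lysate.

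RPKM times length gave whole multiples of 1 read for 100% of values (tolerance 0.01), from which read numbers were recovered. Transcripts not listed in a library were set to 0. Median-of-ratios scaling was applied to each assay on its own, and genes were kept at a mean of at least 1 in both assays over the 8 Cis libraries (10329 genes for footprints, 9345 for RNA and 9187 for both) and tested as log2(RPKM + 0.5), which understates changes of low genes. Changes were tested with limma 3.58.1 in R 4.3.3 (lmFit, contrasts.fit, eBayes with trend, two-sided) over all 12 libraries, the TE change being the interaction of assay and time, and adjusted by Benjamini-Hochberg over all genes tested. Adjusted p in the text are from this fit, errors are its SE and intervals its 95% intervals. With 2 libraries per group, an exact permutation of the time labels within each assay has 36 arrangements and cannot go below p = 0.05556. The test was run on simulated data first. Same-numbered libraries did not deviate together across genes (r from -0.036 to 0.024), and the main fit is unpaired. Labels do not say whether equal numbers mark the same lysate, and this r does not settle it. The number of reads limits precision, and read intervals and the floor of 3 reads cover counting error only.

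Named were the 12 largest rises and the 12 largest falls past the threshold, and in each gene list with at least 3 genes tested every gene past it, or else the 2 with the smallest p. Ern1, Atf4, Ddit3, Ftl1, Fth1, Nxt1, Rbm39, mt-Nd4l and the 4 stalk genes were named besides. The members, lists and this rule were chosen with earlier results of these data known. Genes named after their values were seen are given as such. Some members that this rule names, and an allele of the line, are not reported here. Reads of genes with near-identical copies, such as ribosomal protein, histone and ferritin genes and the overlapping mt-Nd4l and mt-Nd4, are uncertain. Alternatives covered the pseudocount, the filter, the scaling, the variance trend, the libraries, a replicate block, limma-voom on recovered reads and each Cis library left out. Promoter windows are from RefSeq on GRCm38.p6.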

Additional observations from a re-analysis of the deposited data

How the results depend on the processing

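The counts of TE calls varied with the processing, while none of the 94 called genes changed direction under any alternative. Against 56 rises and 38 falls, there were 36 and 25 without the filter, 35 and 15 with the 8 Cis libraries alone, 1 and 1 without the variance trend (1142 genes at an unadjusted p under 0.05), 42 and 112 without scaling, 84 and 94 with limma-voom on recovered reads, 97 and 97 at an adjusted p under 0.1, and 26 and 19 with an absolute log2 change above 1 as well. Other pseudocounts, a mean RPKM of at least 5 and quantile normalization kept both counts within 1.5 times. Leaving out each Cis library in turn gave 13 to 38 rises and 4 to 33 falls. The counts were 13 and 4 without either footprint library of 6 h, 24 and 13 without footprint replicate 1 of 21 h, 19 and 7 without replicate 2, 31 and 25 without RNA-seq replicate 2 of 6 h, 24 and 11 without RNA-seq replicate 1 of 21 h and 30 and 19 without replicate 2. Apart from the smaller number of genes or libraries that some alternatives hold, the cause was not tested.

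Labels give the groups the same replicate numbers and do not say whether these pair the samples. A replicate block gave 41 rises and 25 falls, and TE formed per replicate number gave 20 and 9.

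The TE change of Ern1, -0.0087, was 0.00702 with a pseudocount of 0.1, 0.0202 with quantile normalization, 0.00136 with limma-voom, and -0.176 to 0.159 when 1 library was left out. The TE change of Hspa8 was -0.00799 with quantile normalization. The cause was not tested. Depth limits genes under about 20 reads per library, 8 of the called genes in each direction.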
